A study of Mus musculus with 6 samples.

Results

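The genes described here encode the axon guidance ligands and receptors of the mouse: semaphorins with their plexin receptors, ephrins with their Eph receptors, netrins with their Unc5 receptors, and Slits with their Robo receptors. They were chosen by name, as all probes that are not controls and whose gene name begins with Sema, Plxn, Epha, Ephb, Efna, Efnb or Unc5, or is Ntn, Slit or Robo followed by a digit. The rule found 68 of the 27343 gene names on the array, measured by 121 probes. It used no measured value. It also took in Unc50 and Unc5cl, which share letters with the netrin receptors and are not netrin receptors, and both are kept apart below.

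The study compared the spinal cord of Dhtkd1 null mice with that of wild-type mice. Dhtkd1 encodes a mitochondrial enzyme subunit of lysine and tryptophan breakdown, and mutations of the human gene have been linked to an inherited neuropathy. All 6 samples were total RNA of spinal cord from male C57BL/6 mice at 8 weeks of age, 3 wild-type and 3 Dhtkd1 null, each hybridised in 1 colour (Cy3) to an Agilent whole mouse genome array. The labels do not say how the null allele was made or that each sample came from a separate animal, so the p-values below measure the spread between samples as labelled.

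A growth cone reads guidance ligands through receptors on its surface, and the receptors pass the signal to small GTPases and kinases that reshape actin and microtubules. Many of these genes stay on after the axons have been laid down. In the adult spinal cord, semaphorins, ephrins, netrins and Slits are made by neurons, oligodendrocytes, astrocytes, vessels and the meninges, and some of them act on myelin, synapses, blood vessels and the response to injury.

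The signal of a probe is given below as log2 of its intensity minus the 75th percentile of its array, so a value of 0 means as bright as that percentile. Such values can be compared between samples for 1 probe and not between probes. That percentile lay between an intensity of 918 and 1032 on the 6 arrays, and 78.4% to 82.0% of the spots were well above background. Of the 121 guidance probes, 110 or 111 were well above background on each array. Both probes of Dhtkd1 itself were lower in the null samples, by 1.08 (SE 0.08) and 1.07 (SE 0.28) on the log2 scale, in all 3 null samples against all 3 wild-type samples. All 12 oligodendrocyte, 9 neuron and 6 motor neuron markers listed for the tissue were measured, as were all 7 Schwann cell and all 9 meningeal fibroblast markers. Wild-type replicate 2 and all 3 null samples shared 1 slide, called slide 1, and wild-type replicates 1 and 3 were on slide 2. Slide 1 therefore holds both genotypes, with only 1 wild-type array, and differences within it are given below beside those over all arrays.

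Of the 68 genes, 66 could be tested. Ntn5, a netrin, was well above background on at most 1 of 6 arrays and Unc5cl on at most 2, and neither was tested. No guidance gene differed between null and wild-type at an adjusted p under 0.05 (limma, Benjamini-Hochberg over 21438 genes), and the lowest adjusted p among them was 0.464. The same held for the array as a whole, where 0 genes (0.00%) passed. At an unadjusted p under 0.05, 2 guidance genes were higher in the null samples (3.03% of those tested), beside 5.76% of all genes, and 2 were lower (3.03%), beside 3.25% of all genes. The values of the 3 null arrays lay entirely above those of the 3 wild-type arrays for 3 guidance genes (4.55%), against 9.18% of all genes, and entirely below for 3 (4.55%), against 5.63% of all genes. A difference of more than 0.5 on the log2 scale was seen for 1 guidance gene (1.52%), against 7.41% of all genes. The shares of guidance genes were thus near or under those of the array in each of these counts. With 3 samples against 3, an exact permutation test of 1 gene cannot give a p under 0.1.

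The typical guidance gene differed little between the genotypes. The median log2 difference, null minus wild-type, was -0.03 over the 66 genes, of which 30 were higher and 36 lower, and 0.02 over all genes tested. With median centring 25 were higher and 41 lower, and within slide 1 the majority turned, with 38 higher and 28 lower. The ligands had a median of -0.05, with 13 of 34 higher, and the receptors of 0.02, with 17 of 31 higher. The 95% interval of the difference lay wholly within a 2-fold change in either direction for 60 guidance genes (90.9%, against 87.0% of all genes) and within a 1.5-fold change for 42 (63.6%, against 67.9%). The 6 whose interval reached beyond 2-fold were Sema3b, Sema3d, Ntn1, Ntn4, Epha1 and Ephb4. These intervals are those of the brightest probe, taken 1 gene at a time and without slide in the model. Dimmer probes of some genes within 2-fold reached beyond it, such as those of Efna5 (-0.95 to 1.45) and Sema3c (-1.03 to 0.08). In RNA of a tissue, fewer cells of a type and less RNA per cell cannot be told apart.

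**Figure D1:**
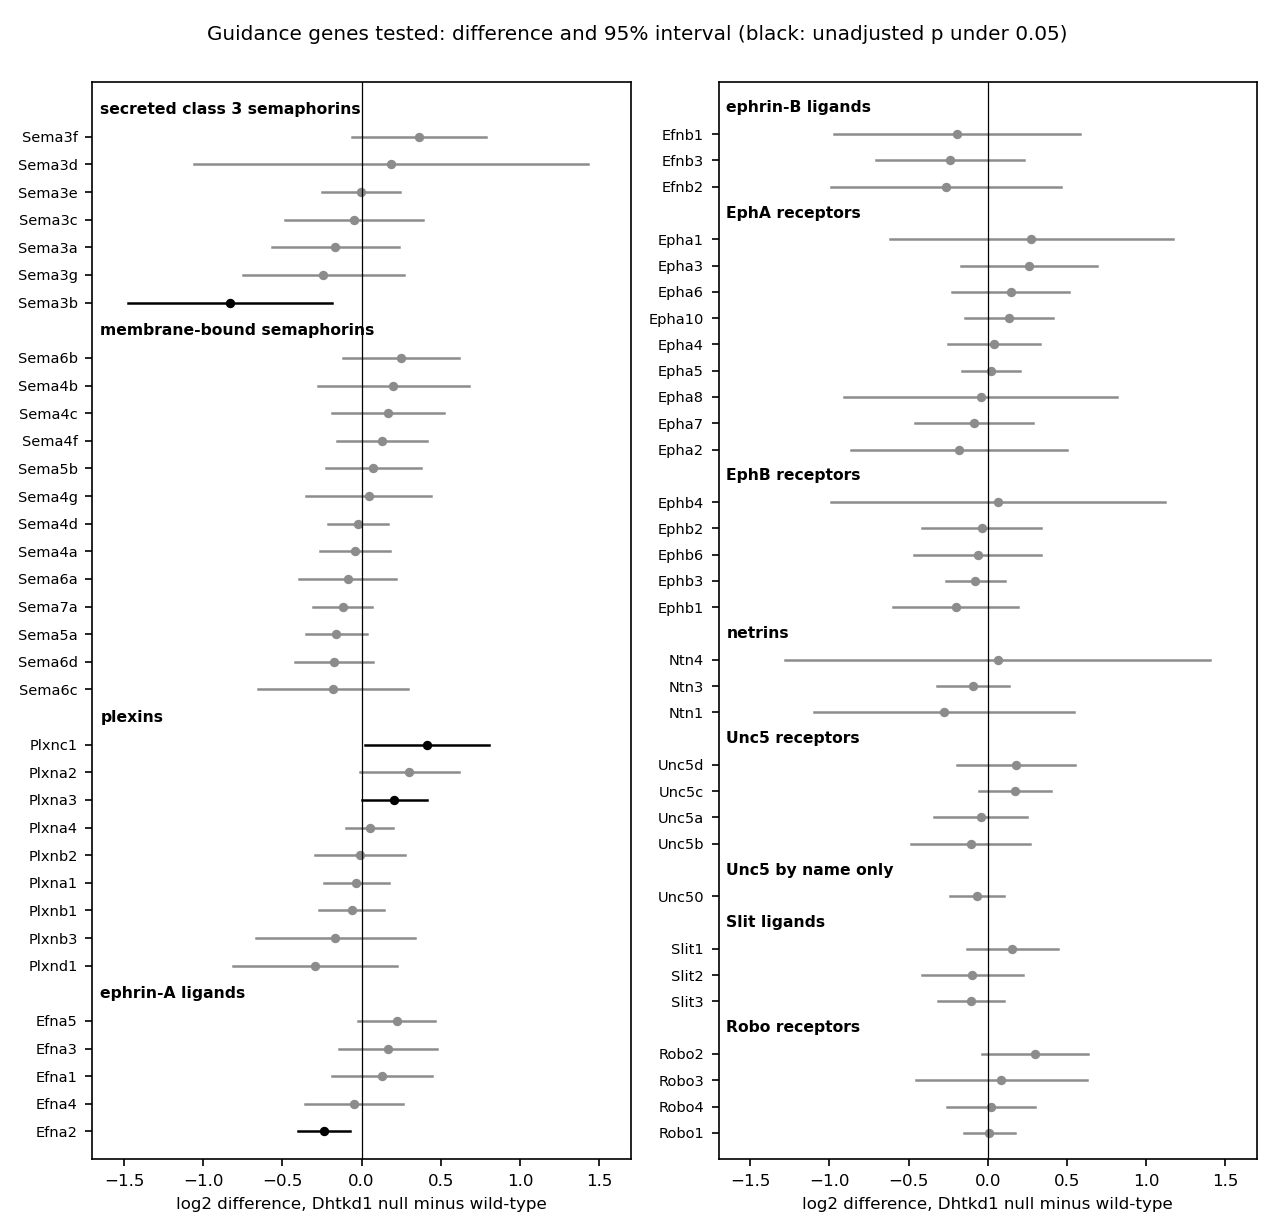
Log2 difference between Dhtkd1 null and wild-type spinal cord (horizontal axis, null minus wild-type) for the 66 guidance genes tested, grouped by family; points are the estimates of limma and lines their 95% intervals, from 3 arrays per genotype. Black marks the 4 genes with an unadjusted p under 0.05, Plxnc1 and Plxna3 to the right of 0 and Efna2 and Sema3b to the left, and the intervals of all other genes cross 0.

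Class 3 semaphorins are secreted and repel or attract axons and vessels through neuropilins and plexins. Of the 7 tested, 2 were higher and 5 lower in the null samples, with a median difference of -0.05. The counts were 3 and 4 with normexp background correction, and 3 and 4 within slide 1 (median -0.22). Over all arrays 1 had an unadjusted p under 0.05. This was Sema3b, which guides commissural and other axons and has been described as a tumour suppressor. Sema3b signals in wild-type replicates 1, 2 and 3 were 1.73, 0.83 and 1.16, and those in null replicates 1, 2 and 3 were 0.10, 0.58 and 0.55. Every null array lay below every wild-type array, with wild-type replicate 1 the highest and null replicate 1 the lowest. The wild-type mean was 1.24 ± 0.46 (SD, n = 3), and the null mean 0.41 ± 0.27 (SD, n = 3). That difference of -0.83 (SE 0.26), 1.78-fold lower in the null samples, was the largest of any guidance gene tested, with an unadjusted p of 0.0198 and an adjusted p of 0.501 (limma). Within slide 1 it was -0.42, and leaving out wild-type replicate 1 gave -0.59. Its unadjusted p was 0.230 with slide as a fixed block and 0.0206 with slide as a random block.

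Sema3f, a class 3 semaphorin that acts mainly through neuropilin-2, lies close to Sema3b in the genome and differed in the opposite direction. In mm9 the brightest probes of Sema3b (chr9:107500892-107500951) and Sema3f (chr9:107584788-107584847) lie on the same strand, 83837 bases apart, and 3 coding genes lie between the pair in the RefSeq annotation. Sema3f signals were -2.56, -3.11 and -2.97 in wild-type and -2.72, -2.45 and -2.39 in null replicates. The groups overlapped, since wild-type replicate 1 was above null replicate 1. Its difference was 0.36 (SE 0.17, unadjusted p 0.0811), and a second, dimmer probe of Sema3f gave 0.55 (SE 0.17, unadjusted p 0.0194 among single probes). Within slide 1 the brightest probe gave 0.59.

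The other class 3 semaphorins gave differences between -0.24 and 0.18 on their brightest probes. Sema3e, which binds plexin D1 directly and acts on vessels, was the nearest to 0 at -0.0035 (SE 0.10). Sema3g, a semaphorin made by endothelium, was 0.48, -0.32 and 0.01 in wild-type and -0.27, -0.10 and -0.21 in null replicates. Wild-type replicate 1 stood above the other 5 arrays for Sema3g, as it did for Sema3b. Sema3d was the least steady of the class, running from -3.80 to -2.52 in wild-type and from -3.86 to -2.29 in null samples, so its difference of 0.18 had an SE of 0.50. Sema3a, the classic collapsing factor of sensory growth cones, gave -0.17 (SE 0.16), and Sema3c gave -0.05 (SE 0.18). A second, dimmer probe of Sema3c gave -0.48 (SE 0.23, limma, unadjusted p 0.0805 among single probes). The dimmer probes of Sema3e gave 0.01 (SE 0.08) and 0.29 (SE 0.21).

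Semaphorins of classes 4 to 7 are held in the membrane by a transmembrane stretch or a lipid anchor. Among the 13 tested, 6 were higher and 7 lower (5 and 8 with median centring, 7 and 6 with normexp), with a median of -0.02 and differences between -0.18 and 0.25. None had an unadjusted p under 0.05. Sema5a, which carries thrombospondin repeats and can attract or repel, read 1.53, 1.33 and 1.40 in wild-type and 1.28, 1.22 and 1.29 in null replicates. All 3 null arrays were below the wild-type arrays, by a small margin. The difference was -0.16 (SE 0.08, unadjusted p 0.0880), and -0.07 within slide 1. Sema4d, which is made by oligodendrocytes and acts on plexin B1, was the nearest to 0 at -0.02 (SE 0.08). Sema7a, the lipid-anchored member, gave -0.12 (SE 0.08), and Sema6d, a ligand of plexin A1, gave -0.17 (SE 0.10). The highest of the class was Sema6b at 0.25 (SE 0.15).

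Plexins are the signalling receptors of the semaphorins and carry a GTPase-activating region inside the cell. Of the 9 plexins, 4 were higher and 5 lower in the null samples, with a median of -0.01. That split was the same under every scaling tried, but within slide 1 it was 5 and 4, with a median of 0.06. Those higher over all arrays were Plxna2, Plxna3, Plxna4 and Plxnc1. The null arrays lay entirely above the wild-type arrays for Plxnc1, Plxna3 and Plxna4, which are the 3 guidance genes counted as such above.

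Plxnc1, the receptor of Sema7a, read -0.04, -0.40 and -0.24 in wild-type and 0.12, -0.02 and 0.47 in null replicates. The lowest null array, replicate 2, was just above the highest wild-type array, replicate 1. The wild-type mean of -0.22 ± 0.18 (SD, n = 3) compared with a null mean of 0.19 ± 0.25 (SD, n = 3). The difference was 0.41 (SE 0.16), 1.33-fold higher in the null samples, with an unadjusted p of 0.0424 and an adjusted p of 0.542 (limma). Within slide 1 it was 0.58. A second probe of Plxnc1 gave 0.45 (SE 0.19), with wild-type values of -4.26, -4.35 and -4.80 and null values of -4.30, -3.96 and -3.79, where wild-type replicate 1 was above null replicate 1.

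Plxna3, a receptor through which class 3 semaphorins act together with neuropilins, read 0.33, 0.24 and 0.42 in wild-type and 0.47, 0.63 and 0.51 in null replicates. The lowest null array, replicate 1, lay just above the highest wild-type array, replicate 3. The difference was 0.21 (SE 0.08), 1.15-fold higher in the null samples, with an unadjusted p of 0.0477 and an adjusted p of 0.548 (limma), and it was 0.30 within slide 1. A second probe of Plxna3 gave 0.22 (SE 0.09), with wild-type values of -4.00, -3.97 and -3.81 and null values of -3.74, -3.77 and -3.61. The second probes of Plxna3 (mm9 chrX:71587057-71587288, plus strand, a span wider than the probe) and Plxnc1 (mm9 chr10:94257387-94257446, minus strand) are shown because they read the most alike stretches of these receptors on the array. Capitals mark the 27 bases that are identical over an ungapped overlap of 51 bases:
Plxna3: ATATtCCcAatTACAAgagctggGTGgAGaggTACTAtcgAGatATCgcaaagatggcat
Plxnc1: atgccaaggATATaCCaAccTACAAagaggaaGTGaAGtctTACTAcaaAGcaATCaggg
The other pairings of a Plxna3 probe with a Plxnc1 probe shared at most 19 bases in any such overlap.

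Plxna2, a receptor of class 3 and class 6 semaphorins, was measured by 3 probes that all pointed the same way. Its brightest probe read 2.02, 1.78 and 2.21 in wild-type and 2.36, 2.19 and 2.36 in null replicates, so that null replicate 2 fell just under wild-type replicate 3. The difference was 0.30 (SE 0.13, unadjusted p 0.0551) over all arrays and 0.52 within slide 1. The 2 dimmer probes gave 0.37 (SE 0.11, unadjusted p 0.0164 among single probes) and 0.24 (SE 0.14). Plxna4, a co-receptor for Sema3a and receptor for class 6 semaphorins, had groups that did not overlap and a difference of only 0.05 (SE 0.06), since its 6 arrays spanned 0.08 in all. Its other probes gave up to 0.32.

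The promoters of Plxna2, Plxna3 and Plxnc1 are shown because all probes of these genes were higher in the null samples, as were those of Plxna4, which was not matched. They cover 250 bases before to 50 after the annotated start, from RefSeq on GRCm38.p6, and capitals mark each GGGCGG, a letter string that transcription factors of the Sp family are known to bind, on either strand (CCGCCC):
Plxna2 (chr1:194619579-194619878, plus strand): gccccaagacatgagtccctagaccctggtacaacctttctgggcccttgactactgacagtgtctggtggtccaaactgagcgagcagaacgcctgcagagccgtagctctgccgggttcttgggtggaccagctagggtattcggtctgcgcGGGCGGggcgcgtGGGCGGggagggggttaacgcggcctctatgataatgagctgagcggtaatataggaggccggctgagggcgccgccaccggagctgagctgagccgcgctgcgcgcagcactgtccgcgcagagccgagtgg
Plxna3 (chrX:74328816-74329115, plus strand): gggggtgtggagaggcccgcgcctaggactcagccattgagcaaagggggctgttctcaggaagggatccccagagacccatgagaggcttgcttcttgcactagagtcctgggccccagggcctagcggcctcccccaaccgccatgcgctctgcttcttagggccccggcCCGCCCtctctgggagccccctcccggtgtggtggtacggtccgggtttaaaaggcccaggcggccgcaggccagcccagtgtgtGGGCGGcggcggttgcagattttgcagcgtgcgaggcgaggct
Plxnc1 (chr10:94944796-94945095, minus strand): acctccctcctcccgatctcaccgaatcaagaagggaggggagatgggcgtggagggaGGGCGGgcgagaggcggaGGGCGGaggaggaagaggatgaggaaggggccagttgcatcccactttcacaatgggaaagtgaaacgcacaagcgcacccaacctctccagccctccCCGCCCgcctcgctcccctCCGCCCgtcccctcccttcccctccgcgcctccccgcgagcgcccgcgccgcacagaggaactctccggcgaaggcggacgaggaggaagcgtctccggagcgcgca
Plxna2 and Plxna3 each hold 2 matches and Plxnc1 holds 4, with 25, 18 and 30 CpG dinucleotides. A match was present in 35.7% of all 32851 promoters of this length and in 52 of the 73 promoters (71.2%) of the 57 tested guidance genes listed there. The median promoter held 7 CpG dinucleotides over all genes and 20 over the guidance genes. The letters are thus common among guidance gene promoters.

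The other plexins gave differences between -0.29 and -0.01 on their brightest probes. Plxnb2, which is active in neural and glial precursors, was the nearest to 0 at -0.01 (SE 0.12). A second, dimmer probe of Plxnb2 gave 0.23 (SE 0.20). Plxnb1, the receptor of Sema4d, gave -0.06 on both of its probes. Plxnd1, the vascular plexin, was lower at -0.29 (SE 0.21), and -0.0050 within slide 1.

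**Figure D2:**
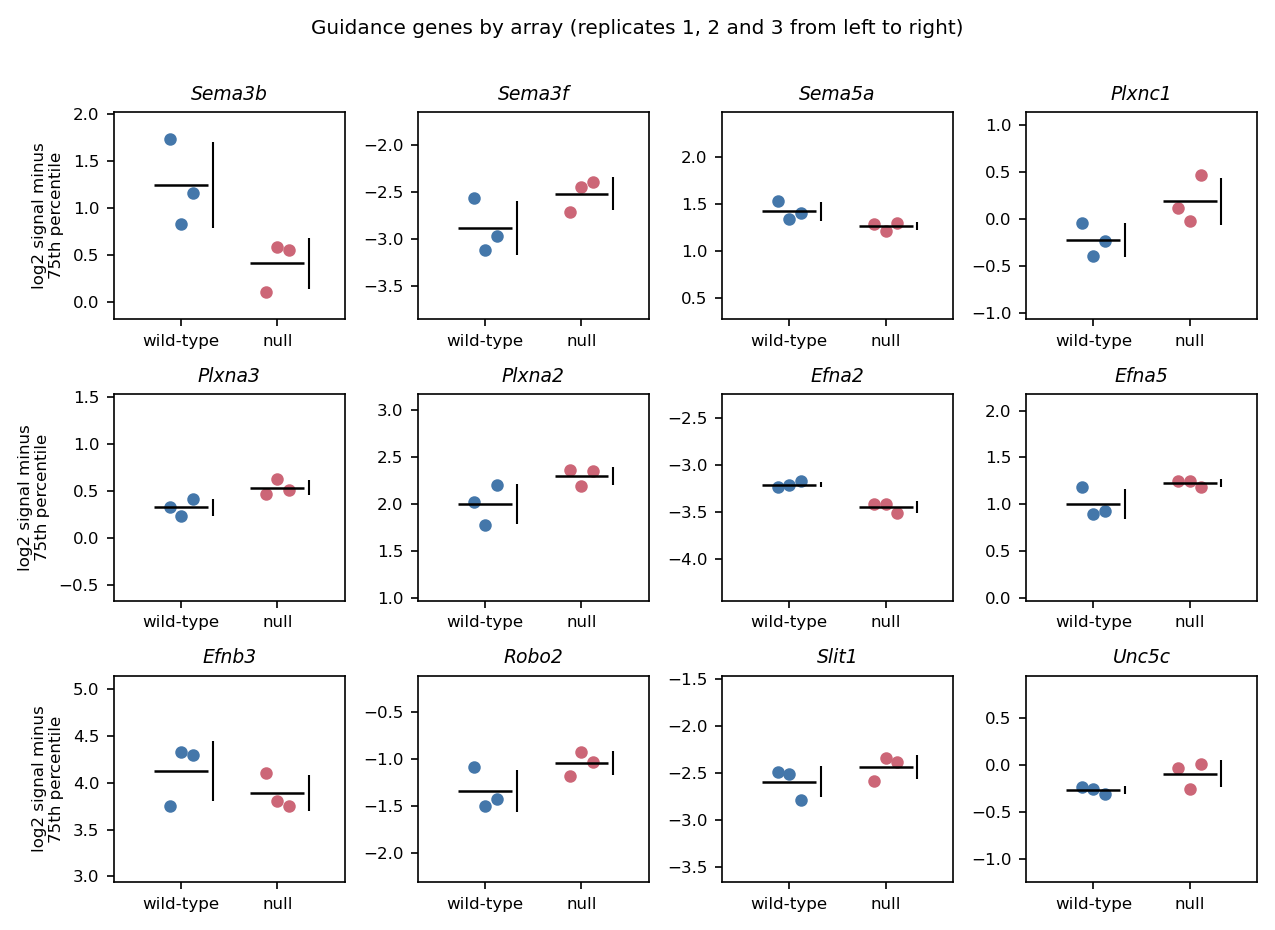
Log2 signal minus the 75th percentile of the array (vertical axis, 2.2 log2 units in every panel) for 12 guidance genes in wild-type (blue) and Dhtkd1 null (red) spinal cord; each point is 1 array, the horizontal bar is the mean and the vertical bar beside it spans 1 SD either way, 3 arrays per genotype. Sema3b has the largest gap between means, -0.83, Plxnc1 and Plxna3 have null arrays above all wild-type arrays, and Efna2 has a small gap of -0.24 with closely set arrays.

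Ephrin-A ligands are anchored in the membrane by lipid and act mainly on EphA receptors, giving graded, mostly repulsive cues. Of the 5, 3 were higher and 2 lower in the null samples, with a median of 0.13. Efna2 had the smallest p of all guidance genes. Efna2 signals were -3.24, -3.22 and -3.18 in wild-type and -3.41, -3.41 and -3.52 in null replicates. All 3 null arrays lay below the wild-type arrays, and the arrays of each genotype were closely set, at a wild-type mean of -3.21 ± 0.03 (SD, n = 3) and a null mean of -3.45 ± 0.06 (SD, n = 3). The difference was -0.24 (SE 0.07), 1.18-fold lower in the null samples, with an unadjusted p of 0.0125 and an adjusted p of 0.464 (limma). Within slide 1 it was -0.23, close to that over all arrays. Its unadjusted p was 0.0722 with slide as a fixed block and 0.0128 with slide as a random block. Efna2 was measured by 1 probe, on the plus strand at mm9 chr10:79652213-79652272.

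The other ephrin-A ligands did not follow Efna2. Efna5, which sorts retinal and motor axons, was higher at 0.22 (SE 0.10, unadjusted p 0.0668), with 1.19, 0.90 and 0.93 in wild-type and 1.25, 1.25 and 1.18 in null replicates. Wild-type replicate 1 lay within the null range and the other two wild-type arrays below it. A second Efna5 probe gave 0.25. Efna1, Efna3 and Efna4, which neighbour each other on chromosome 3, gave 0.13, 0.16 and -0.05, the last the nearest to 0.

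Ephrin-B ligands span the membrane and can signal back into the cell that bears them, in vessels as well as in neurons and glia. All 3 were lower in the null samples, with a median of -0.24, and none had an unadjusted p under 0.05. Efnb3, a midline barrier of the spinal cord that is also made by myelinating oligodendrocytes, read 3.75, 4.33 and 4.29 in wild-type and 4.11, 3.80 and 3.75 in null replicates. Its high arrays were wild-type replicates 2 and 3 and null replicate 1, so the genotypes overlapped, and the difference was -0.24 (SE 0.19). Efnb1 (-0.19, SE 0.31) and Efnb2 (-0.26, SE 0.29) were less certain. Within slide 1 Efnb1 was 0.35 and Efnb2 0.11, the opposite direction, while Efnb3 was -0.44.

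Eph receptors are receptor tyrosine kinases that bind ephrins on neighbouring cells. Of 9 EphA receptors, 6 were higher and 3 lower (4 and 5 with median centring), for a median of 0.04. Within slide 1 the counts were 6 and 3, with a median of 0.28. Epha3, the EphA receptor of smallest p, was -3.95, -4.24 and -3.73 in wild-type and -3.94, -3.72 and -3.47 in null replicates. The groups overlapped, the difference was 0.26 (SE 0.17, unadjusted p 0.189), and its 3 probes ranged from -0.15 to 0.26. Epha4, which keeps corticospinal and interneuron axons from crossing the cord's midline, gave 0.04 (SE 0.12), and Epha5 0.02 (SE 0.07).

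Of 5 EphB receptors, 1 was higher and 4 lower (2 and 3 with normexp), with a median of -0.06. Within slide 1 the majority turned, with 3 higher and 2 lower and a median of 0.09. Ephb1 read 0.41, 0.87 and 0.99 in wild-type and 0.57, 0.50 and 0.58 in null replicates. Wild-type replicate 1 was the lowest of all 6 arrays and the other two wild-type arrays the highest, for a difference of -0.20 (SE 0.16, unadjusted p 0.251). Ephb2, which has a part in synapse formation, was the nearest to 0 at -0.04 (SE 0.15). Ephb4, the receptor of Efnb2 on veins, spread over 1.57 log2 units among the 6 arrays, with a difference of 0.06 (SE 0.43).

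Netrins are secreted, laminin-like cues, and Unc5 receptors turn their attraction through Dcc into repulsion. Of the 3 netrins tested, 1 was higher and 2 lower, with a median of -0.09. With quantile normalisation and with the authors' deposited table of values, 0 were higher and 3 lower. Within slide 1 all 3 were higher, with a median of 0.10. Ntn3 read -1.60, -1.82 and -1.73 in wild-type and -1.79, -1.92 and -1.72 in null replicates. Its groups overlapped, with a difference of -0.09 (SE 0.09, unadjusted p 0.359), and within slide 1 it was 0.01. Ntn1, the floor plate netrin, gave -0.28 (SE 0.33) on its brightest probe and -0.0027 on a second one. Ntn4, which is laid down in basement membranes, gave 0.06 (SE 0.54), the widest interval of any guidance gene. Within slide 1 Ntn4 was 0.94, the largest difference of any guidance gene there.

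Of the 4 Unc5 netrin receptors, 2 were higher and 2 lower in the null samples, and their median was 0.06. Unc5c signals were -0.23, -0.26 and -0.31 in wild-type and -0.03, -0.26 and 0.00 in null replicates. Null replicates 1 and 3 lay above the wild-type range and null replicate 2 within it, for a difference of 0.17 (SE 0.09, unadjusted p 0.111). Unc5a, which was nearest to 0, gave -0.04 (SE 0.12). Unc50, included by name only, read 3.00, 3.095 and 3.096 in wild-type and 3.05, 2.96 and 2.97 in null replicates, a difference of -0.07 (SE 0.07).

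Slits are secreted repellents of the midline, and Robo receptors detect them. Of the 3 Slits, 1 was higher and 2 lower in the null samples, and their median was -0.10. Slit1 read -2.49, -2.51 and -2.78 in wild-type and -2.58, -2.34 and -2.39 in null replicates, with overlapping groups and a difference of 0.15 (SE 0.12, unadjusted p 0.236). Slit2, which is made in the floor plate, gave -0.10 (SE 0.13), with 4 probes between -0.18 and 0.12.

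All 4 Robo genes were higher in the null samples, with a median of 0.05 (2 of 4 higher with median centring and 3 with normexp), and none had an unadjusted p under 0.05. Robo2 signals were -1.09, -1.50 and -1.43 in wild-type and -1.17, -0.92 and -1.03 in null replicates. Wild-type replicate 1 lay within the null range and the other two wild-type arrays below it. The difference was 0.30 (SE 0.14, unadjusted p 0.0731), and 0.46 within slide 1. Robo1, the neighbour of Robo2 on chromosome 16, was 0.01 (SE 0.07), and its 6 arrays spanned 0.10. Robo4, the endothelial Robo, was 0.02 (SE 0.11), and Robo3, which in the embryo lets commissural axons reach the midline, was 0.09 (SE 0.22).

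The probes of 1 gene did not always tell the same story, and Robo2 shows it best. Of its 5 probes above background, one gave 0.46 (SE 0.13, unadjusted p 0.0125 among single probes), with -3.30, -3.59 and -3.73 in wild-type and -3.01, -3.18 and -3.05 in null replicates, another gave 0.52 (SE 0.19, unadjusted p 0.0366), and the lowest gave -0.11 (SE 0.23). The probes of Robo2 lie in different stretches of the gene. Over the guidance genes with 2 or more probes above background, 19 of 31 had all probes in the same direction, and the median distance between the highest and lowest probe was 0.16, with a maximum of 0.64 for Robo2. Counted as single probes, 109 guidance probes were tested, of which 5 were higher and 2 lower at an unadjusted p under 0.05, with a lowest adjusted p of 0.534. Over all 33190 probes these shares were 5.35% and 2.84%. The 5 higher probes belonged to Robo2 (2 probes), Plxna2, Plxnc1 and Sema3f, and the 2 lower ones to Efna2 and Sema3b.

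**Figure D3:**
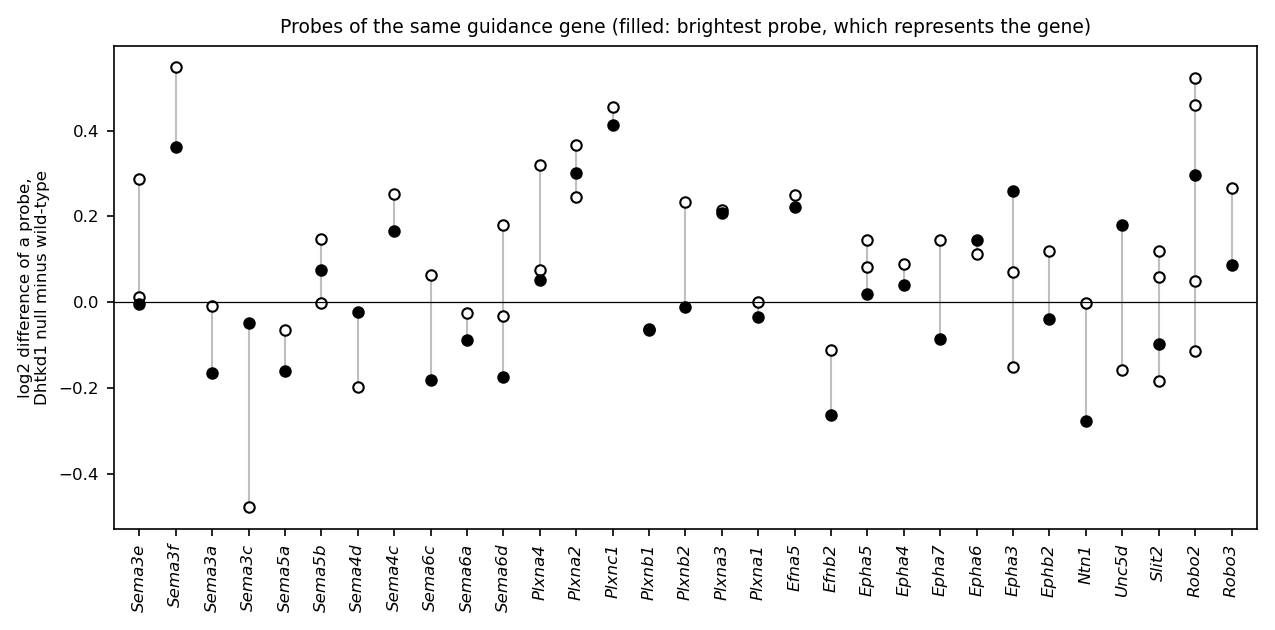
Log2 difference of each probe (vertical axis, null minus wild-type) for the 31 guidance genes with at least 2 probes well above background; each point is 1 probe, filled for the brightest probe, and a grey line joins the probes of a gene. The probes of Plxna2, Plxnc1, Plxna3 and Sema3f stay above 0, while those of Robo2 run from -0.11 to 0.52.

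Guidance genes varied between arrays about as much as other genes. The median range over the 6 arrays was 0.47 for the guidance genes and 0.42 for all genes, and 9 guidance genes (13.6%) had a range over 1, against 15.0% of all genes. Those 9 were Sema3b, Ntn4, Ephb4, Sema3d, Epha8, Ntn1, Epha1, Efnb1 and Efnb2. Null replicate 1 was the lowest array for 6 of the 9 (66.7%), against 24.7% of all genes with such a range. Within slide 1, 18 of the 66 guidance genes (27.3%, against 23.6% of all genes) differed in the opposite direction to that over all arrays. Among them were Sema3d (-0.41), Epha1 (-0.43), Epha8 (0.63), Ntn1 (0.10), Sema3g (0.13), Efnb1 and Efnb2. Plxna4, Robo1 and Unc50 had the smallest ranges, 0.08, 0.10 and 0.13.

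Several of the wide ranges ran alongside marker genes of cell types at the edge of the cord, a likeness looked for after the values were seen. On their brightest probes, Efnb1, Efnb2, Ntn1 and Plxnd1 were all highest in wild-type replicate 3 and lowest in null replicate 1. Beside these 4 genes, Plxnb2 had the same highest and lowest array, over a range of only 0.33. Efnb1 read 0.90, 0.19 and 1.09 in wild-type and 0.04, 0.70 and 0.86 in null replicates. Ntn1 read -4.82, -4.84 and -3.74 in wild-type and -4.93, -4.84 and -4.45 in null replicates. A second Ntn1 probe did not share the highest array. It read -4.70, -4.80 and -4.92 in wild-type and -5.38, -4.68 and -4.37 in null replicates. The 9 meningeal fibroblast markers, as deviations from their mean over the arrays, averaged 0.29, -0.52 and 1.43 in wild-type and -1.77, -0.08 and 0.65 in null replicates. Their highest and lowest arrays were those of the brightest probes of the 4 genes. Of those 9, 8 were lower in the null samples, beside 9757 of all 21438 genes. The median of the 9 was -0.80, and none had an unadjusted p under 0.05. Their part in the differences of these 4 genes was not tested. Without null replicate 1, Efnb1 was 0.05, Efnb2 -0.15, Ntn1 -0.18 and Plxnd1 -0.11.

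For Sema3b the Schwann cell markers stand beside the result. The 7 markers averaged 1.74, -0.72 and 0.12 in wild-type and -1.25, 0.18 and -0.08 in null replicates, so wild-type replicate 1 was the highest and null replicate 1 the lowest, as for Sema3b. Epha2 and Slit2 also had these highest and lowest arrays on their brightest probes. The share of all genes with such a pattern was not counted. All 7 Schwann cell markers were lower in the null samples, with a median of -0.55. Of these, 1 had an unadjusted p under 0.05, Pmp2, beside 3.25% of all genes lower at that threshold. Pmp2 was well above background on all 3 wild-type arrays and on 0 null arrays. It was thus kept only through the group in which it was high. The part of the Schwann cell markers in the Sema3b difference was not tested. Leaving out null replicate 1 left Sema3b at -0.68.

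Efnb3 and Plxnb3, a plexin made by oligodendrocytes, shared their highest arrays with the myelin markers. Plxnb3 read 2.45, 3.08 and 2.96 in wild-type and 2.93, 2.51 and 2.55 in null replicates, for a difference of -0.17 (SE 0.20). The 12 oligodendrocyte markers averaged -0.22, 0.33 and 0.20 in wild-type and 0.05, -0.20 and -0.16 in null replicates. Wild-type replicates 2 and 3 and null replicate 1 were thus the 3 highest arrays for both genes and for the list. Of the list, 10 of 12 were lower in the null samples, beside 9757 of all 21438 genes. Of these 10, 1 had an unadjusted p under 0.05, beside 3.25% of all genes lower at that threshold. The part of oligodendrocyte RNA in these differences was not tested.

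**Figure D4:**
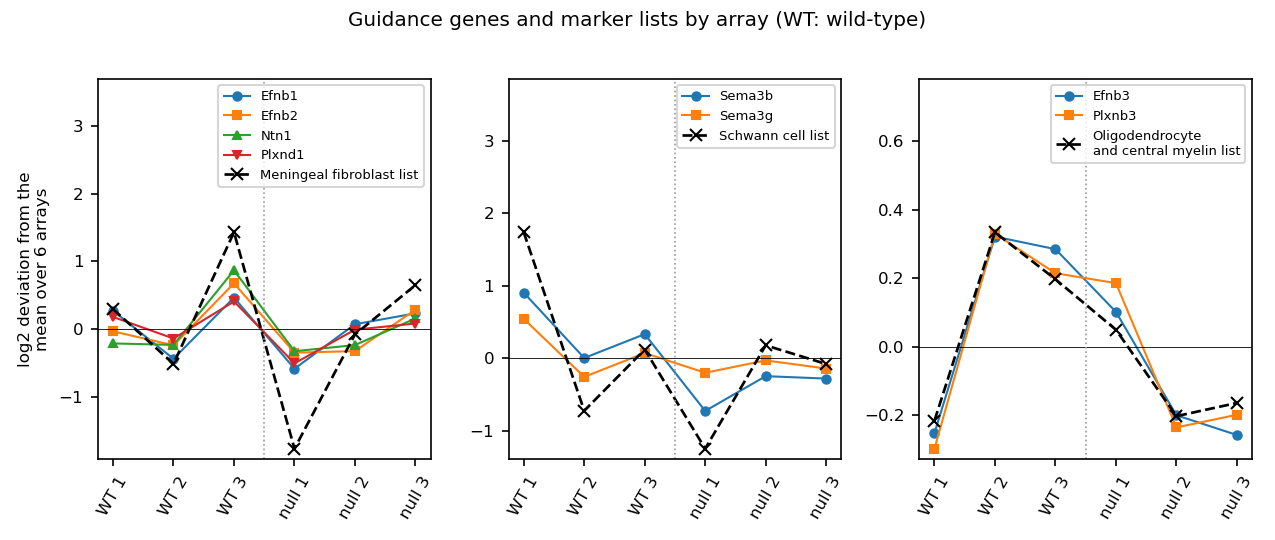
Log2 deviation from the mean over the 6 arrays (vertical axis) by array (horizontal axis, wild-type left and Dhtkd1 null right of the dotted line) for 8 guidance genes (coloured) and the mean of a marker list (black, dashed). Each gene is shown by its brightest probe. Efnb1, Efnb2, Ntn1 and Plxnd1 share their highest and lowest array with the meningeal fibroblast list, Sema3b shares them with the Schwann cell list and Sema3g its highest, and Efnb3 and Plxnb3 share their 3 highest arrays with the oligodendrocyte list. A second Ntn1 probe, not drawn, was highest in null replicate 3.

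The genes that work with these ligands and receptors were listed as well. Of 97 listed co-receptors, partners and effectors, 95 were tested, and 57 of these were higher and 38 lower in the null samples, at a median difference of 0.02. At an unadjusted p under 0.05, 4 were higher (4.21%, beside 5.76% of all genes) and 2 lower (2.11%, beside 3.25%), and none passed an adjusted p of 0.05 (limma, lowest 0.432). Among 12 co-receptors and other partners of semaphorins, 1 was higher. This was Ptprc, the CD45 phosphatase of leukocytes and microglia, with -1.73, -1.54 and -1.69 in wild-type and -1.24, -0.88 and -1.28 in null replicates. All 3 null arrays were above the wild-type arrays, by 0.52 (SE 0.13, unadjusted p 0.00750). Beside it, 7 of 8 microglial markers were higher, of which 3 (C1qa, C1qb and Fcrls) had an unadjusted p under 0.05. Over all genes 54.5% were higher, and 5.76% were higher at that threshold. The differences of the 8 microglial markers ran from -0.22 (P2ry12) to 0.82 (Fcrls). The array means of the 8 were -0.47, -0.06 and 0.10 in wild-type and 0.02, 0.20 and 0.20 in null replicates. All 4 blood leukocyte markers were higher too, by 0.72 to 1.35, and none had an unadjusted p under 0.05. Their array means were 0.09, -0.56 and -1.13 in wild-type and 0.93, 1.41 and -0.73 in null replicates. Null replicate 2 was highest for Ptprc and for this list, but null replicate 3 lay within the list's wild-type range. The part of microglial or leukocyte RNA in the Ptprc difference was not tested. The neuropilins, which hold class 3 semaphorins for the A plexins, gave -0.05 (SE 0.25) for Nrp1 and -0.16 (SE 0.07) for Nrp2.

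Of 14 partners of netrins and Dcc, 2 were higher. Dscaml1, an adhesion molecule of the Dscam family, read 0.86, 1.08 and 0.81 in wild-type and 1.25, 1.26 and 1.36 in null replicates, 0.38 higher (SE 0.09, unadjusted p 0.00791). Flrt3, which binds Unc5 receptors, was 0.31 higher (SE 0.09, unadjusted p 0.0153), also with groups that did not overlap. Dcc itself, the attractive netrin receptor, gave 0.11 (SE 0.10), and its relative Neo1 -0.05 (SE 0.13).

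Of 11 partners of Slits and Robos, 1 was higher, Nell2, a secreted ligand of Robo3, at 0.26 (SE 0.09, unadjusted p 0.0327). None of 18 partners of Ephs and ephrins had an unadjusted p under 0.05. Of 41 cytoplasmic effectors, 2 were lower. Farp2, an exchange factor downstream of plexin A1, was lower by 0.22 (SE 0.07, unadjusted p 0.0171), and Cdc42, a small GTPase of the growth cone, by 0.17 (SE 0.07, unadjusted p 0.0480).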

How the data were processed

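Total RNA of 6 spinal cord samples (3 wild-type, 3 Dhtkd1 null) was labelled with Cy3 and hybridised to Agilent arrays (design 014868, positions on mm9). The deposited files of the authors hold spot intensity from Agilent Feature Extraction 10.7.3.1; per the file headers it is background-subtracted within each array, with no step that brings arrays to 1 scale. The authors also deposited a table of log2 values, made by a method not given in the sources used here. Its columns share a median of 7.22 and follow the scanner files with r of at least 0.9997, so it served as an alternative only.

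Groups, ages and replicate numbers were taken from the labels. Outlier spots, 58 to 89 on an array, were removed, and averaging the repeated spots gave 41174 probes. From each log2 processed intensity the array's own 75th percentile was subtracted. A probe was kept if well above background on at least 3 of 6 arrays (33190 probes), and the brightest kept probe stood for a gene (21438 genes). All genes were fitted together with limma 3.58.1 in R 4.3.3 (lmFit and eBayes, 2-sided, no covariate), with Benjamini-Hochberg adjustment over all genes or, for single probes, over all probes. The code was tested on simulated data. The number of arrays limits the precision. Names were updated through RefSeq accessions (GRCm38.p6), which changed none of the guidance genes.

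Values in every sample are given for genes with an unadjusted p under 0.05, for the gene of smallest p in the other families, and for genes whose probes disagree while 1 has such a p. Genes whose groups do not overlap and the gene nearest 0 in each family are named with their difference. Other genes given with values (Sema3f, Plxna2, Efna5, Sema3g and the genes set beside marker lists among them) were chosen after their values were seen. The members, pathway lists and marker lists were chosen with earlier results of these data known.

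Alternatives were the scaling, background correction, filter, probe rule, spread model, slide and replicate as blocks, slide 1 alone, and leaving out each replicate. A genome and protein sequences were not used here.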

Additional observations from a re-analysis of the deposited data

How the results depend on the processing

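No guidance gene passed an adjusted p of 0.05 under any of the 20 alternatives, and the lowest adjusted p of any guidance gene was 0.259, so what varied was which genes had an unadjusted p under 0.05. The count of higher genes, 2 over all arrays, was 0 with median centring, 4 with the mean of the kept probes, 4 with each probe on its own, 4 with limma's trend and robust options, 6 with slide as a fixed block and 6 on slide 1 only. Leaving out 1 replicate gave 0 to 6. With normexp 3 genes were higher, as Plxna2 joined Plxna3 and Plxnc1. The count of lower genes, 2 over all arrays, was 3 with median centring and 3 with normexp. In both, Sema5a joined Efna2 and Sema3b. The count of lower genes was 1 with the trend and robust options and 1 with the replicate block. It was 1 to 4 when 1 replicate was left out. With limma's trend and robust options the lower gene was Sema3b, and Efna2 had an unadjusted p of 0.0596. With slide as a fixed block the lower genes were Sema6d and Unc5b, in place of Efna2 and Sema3b. Leaving out wild-type replicate 1 gave 6 higher genes, and there were 0 without null replicate 1, without null replicate 3 and without wild-type replicate 2. The median difference, -0.03, was 0.0633 with slide as a fixed block and 0.0633 on slide 1 only, and ran from -0.04 to 0.01 when 1 replicate was left out. Slide 2 holds only wild-type arrays, so a fixed slide block gives the same differences as slide 1 only. These alternatives are thus not separate estimates of a difference. Ntn3 turned to 0.0122 with slide as a fixed block and on slide 1 only, and the other genes chosen by their p kept their direction under all 20. Many of the 20 could hardly move a difference. Efna2 was -0.2379 over all arrays, and also with either filter, the trend and robust options and the replicate block. Efna2 and Sema3b have 1 probe each, so averaging probes left their differences as they were. The authors' table nearly repeated quantile normalisation (Efna2 -0.3096 and -0.3097). The counts of alternatives here are thus not counts of separate tests. Efna2 and Sema3b had an unadjusted p under 0.05 in 16 of 20 alternatives each, Plxnc1 in 14 and Plxna3 in 10. The unadjusted p of Efna2 was 0.0551 without null replicate 3, and that of Sema3b was 0.0610 without null replicate 1. Plxnc1 was 0.27 with an unadjusted p of 0.104 without null replicate 3, and its p also exceeded 0.05 without wild-type replicate 2, wild-type replicate 3 or null replicate 1. Plxna3 had an unadjusted p under 0.05 without wild-type replicate 3 (0.0331) but not without any of the other 5 samples. The cause of these shifts was not tested. With no filter on dim probes, Ntn5 joined the higher genes at an unadjusted p under 0.05, although it was above background on at most 1 array. Over all genes the share higher in null was 54.5%, 42.3% with median centring and 49.3% with quantile normalisation. The labels give no pairing of the samples. Deviations of same-numbered samples correlated at -0.02, -0.11 and 0.33, and those of different-numbered samples at -0.24 to 0.27. With 3 arrays a genotype, these correlations cannot decide whether the numbers pair samples. The replicate block gave 2 higher genes, Plxna2 and Plxnc1, without Plxna3 (limma, unadjusted p 0.106). It gave Efna2 as the lower gene, without Sema3b (limma, unadjusted p 0.0569). Only 3 arrays a genotype, with 1 wild-type array on slide 1, limit what differences could be seen, and a p above the threshold does not show that a gene was the same in both genotypes.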
